A study of Mus musculus with 30 samples.

Results

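The comparison described here is Korean Red Ginseng water extract alone against vehicle in mouse C2C12 myotubes, without D-galactose. Its members are the 3 libraries of the water extract group (RGW) and the 3 libraries of the vehicle control, which make 6 of the 30 libraries in the series. Groups were taken from the sample titles, and RGW was compared with control over all 12184 genes that passed the filter on low counts. The series measured poly(A) RNA in myotubes that received D-galactose, a ginseng preparation or both, in 10 groups of 3 libraries. C2C12 is a line of mouse muscle precursor cells that fuse into multinucleated myotubes when serum is lowered. All groups were wild-type C2C12 cells grown to confluence and then kept for 5 to 7 days in medium with 2% fetal bovine serum. The extract was given at 100 µg/mL, and the labels give 12 h of pretreatment. Whether cells without D-galactose were harvested at that time or after a further 24 h is not given in the sources used here. Other groups used below for reference were D-galactose alone (Dgal, 20 mg/mL for 24 h), the extract followed by D-galactose (RGW_Dgal), and the non-saponin fraction (NSFr) and saponin fraction (SFr) at 100 µg/mL and ginsenoside Rb2 at 20 µM, each for 12 h without D-galactose. The series' design text calls the replicates biological. No source says whether they came from separate cultures or days, so p-values measure the spread between these libraries.

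Red ginseng is steamed and dried ginseng root, and its water extract holds the saponins called ginsenosides together with polysaccharides and other soluble compounds. Genes followed most closely below belong to the integrated stress response and to cell division. In the integrated stress response, kinases that sense amino acid shortage, unfolded protein or other stress phosphorylate the translation factor eIF2alpha, which favours translation of the transcription factor ATF4. ATF4 then raises genes of amino acid synthesis, amino acid import and stress signalling, and muscle under such stress is known to secrete the hormones FGF21 and GDF15. A differentiating myoblast leaves the cell cycle for good, so transcripts of mitosis in a myotube culture are usually read as coming mostly from remaining single cells.

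The 6 libraries held 23545437 to 29139059 counts, at which 3 counts corresponded to 0.103 to 0.127 CPM, the count scaled to the library's total. Correlations of log2 CPM were 0.995 to 0.996 within the groups and 0.994 to 0.996 between them, and the first principal component of the 6 libraries held 27.3% of the variance. Myotube markers were abundant, with the summed level of 10 genes at 25678 to 27755 CPM in control and 25077 to 25845 CPM in RGW. The summed level of 13 myoblast markers was 4094 to 4202 CPM in control and 4002 to 4118 CPM in RGW. Most of it came from Itga7, with a mean of 2545 CPM over the 6 libraries. Of these markers, 0 of the 11 tested were called by edgeR or DESeq2 (2 had an unadjusted p under 0.05). Markers of endothelial and immune cells summed to 3.24 to 3.54 CPM in control and 2.89 to 3.62 CPM in RGW over 11 genes, with Tie1 and Cd3e at 0 in all 6 libraries. For 9 adipocyte markers the sums were 19.9 to 22.01 CPM and 19.5 to 24.0 CPM, with Plin1, Lep and Retn at 0. Bone and cartilage markers, mostly Spp1, summed to 1496 to 1601 CPM in control and 1617 to 1628 CPM in RGW over 11 genes with Acan at 0, and fibroblast and tenocyte markers to 316 to 356 CPM and 330 to 367 CPM over 11 genes. The 13 mitochondrially encoded genes took 0.727%, 0.858% and 1.14% of the counts in control 1, 2 and 3, and 1.33%, 1.29% and 1.25% in RGW 1, 2 and 3. All 3 RGW shares were above all 3 control shares, a difference of 0.382 percentage points with a two-sided exact permutation p = 0.1, the smallest that 3 against 3 libraries can give. The part of this shift in the results below was not tested, apart from a repeat without those genes.

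The extract changed many genes by small amounts. At a Benjamini-Hochberg adjusted p under 0.05 in edgeR's quasi-likelihood test, 391 of 12184 genes (3.21%) were called. Of these, 248 were higher in RGW (2.04% of the tested genes) and 143 lower (1.17%). The median size of a called change was 0.23 on the log2 scale, a fold of 1.17, and the middle range of sizes ran from 0.17 to 0.35. A change of at least 1.5-fold was seen in 16 called genes and of at least 2-fold in 5. In 386 of the 391 called genes the 3 libraries of RGW lay entirely above or below the 3 of control, against 19% of all tested genes. The median log2 fold change of all tested genes was -0.0037. An unadjusted p under 0.05 in edgeR's test was seen in 2014 of the 12184 genes.

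**Figure D1:**
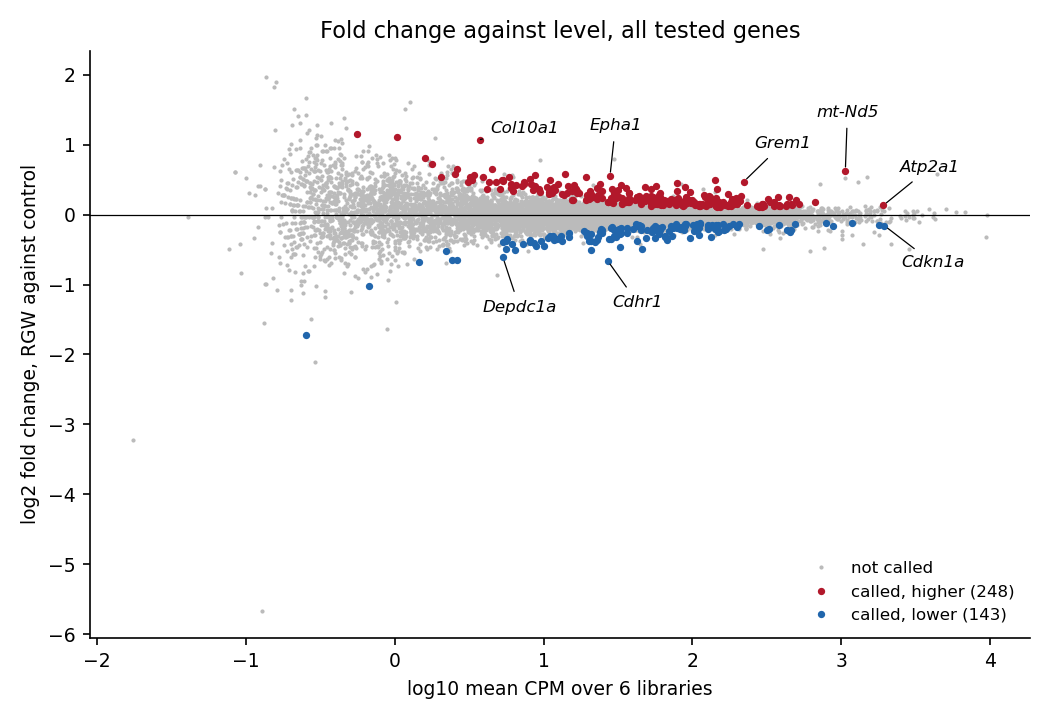
Log2 fold change of RGW against control (y axis) plotted against the log10 of the mean CPM over the 6 libraries (x axis), with 1 point per tested gene. The 248 higher and 143 lower called genes lie close to 0, most within 0.35 on the log2 scale, and mt-Nd5 stands apart from the other abundant called genes at 0.62 and 1069 CPM.

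In the plot of fold change against level, uncalled genes spread most at low level. A fit of the 6 libraries alone called 91 genes, of which 90 were among the 391. With 1 library left out, the count was 229, 245 or 348 when that library was control 1, 2 or 3, and 196, 325 or 224 when it was RGW 1, 2 or 3. In all, 112 genes were called with each of the 6 libraries left out in turn, and 76 under every alternative tried.

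Epha1, Grem1 and Fmod were among the risen genes of smallest p. Genes picked by rank had to have groups that did not overlap, so their lack of overlap was set by the choice. Nearly all called genes (386 of 391) lacked overlap, so it adds no evidence for the called list members named below either. Epha1, a receptor tyrosine kinase for ephrins, stood at 24.5, 22 and 21.5 CPM in control and at 33.7, 32.7 and 33.5 CPM in RGW. The log2 fold change was 0.55 ± 0.051 (SE, adjusted p = 2.95e-08, n = 3 per group). Grem1, which encodes the secreted bone morphogenetic protein (BMP) antagonist gremlin 1, had 178, 188 and 191 CPM in control and 255, 252 and 265 CPM in RGW. Its log2 fold change was 0.47 ± 0.051 (adjusted p = 1.45e-06). Fmod, the gene of the collagen-binding proteoglycan fibromodulin, rose from 15.4, 15.0 and 17.1 CPM to 23.2, 22.9 and 22.8 CPM (0.54 ± 0.064, adjusted p = 2.36e-06). All 3 genes were tight within RGW. Igfbp4, which binds insulin-like growth factors outside the cell, rose from 69.4, 65.9 and 62.8 CPM to 85.0, 91.6 and 95.4 CPM (0.46 ± 0.063). Bmp4, a BMP ligand, rose from 39.1, 38.3 and 38.3 CPM to 44.8, 45.5 and 48.4 CPM (0.26 ± 0.050), and Rxra, the retinoid X receptor alpha gene, rose by 0.20 ± 0.038. These 6 genes were called with any 1 of the libraries left out and in the fit of the 6 libraries alone. On GRCm38 with GENCODE vM21, Epha1 lies at chr6:42358487-42373268 on the minus strand, Grem1 at chr2:113746164-113758646 on the minus strand and Fmod at chr1:134037254-134048277 on the plus strand.

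Falls of small p came in Cdhr1 and Cd80. Cdhr1, which encodes a cadherin known from photoreceptors, had 31.4, 33.4 and 34.4 CPM in control and 22, 19.8 and 21 CPM in RGW. This was the largest fall among genes of at least 5 CPM by the naming rule (-0.66 ± 0.077, adjusted p = 2.59e-06). Cd80, the gene of a T cell co-stimulatory ligand, was at 118, 123 and 125 CPM in control and 102, 97.9 and 100.2 CPM in RGW (-0.29 ± 0.034, adjusted p = 2.36e-06). Peg10, an imprinted gene derived from a retrotransposon, fell from 35.6, 40.4 and 37.8 CPM to 27.9, 27.8 and 26.3 CPM (-0.47 ± 0.067). Each of the 3 was called with any 1 library left out and in the fit of the 6 libraries alone.

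**Figure D2:**
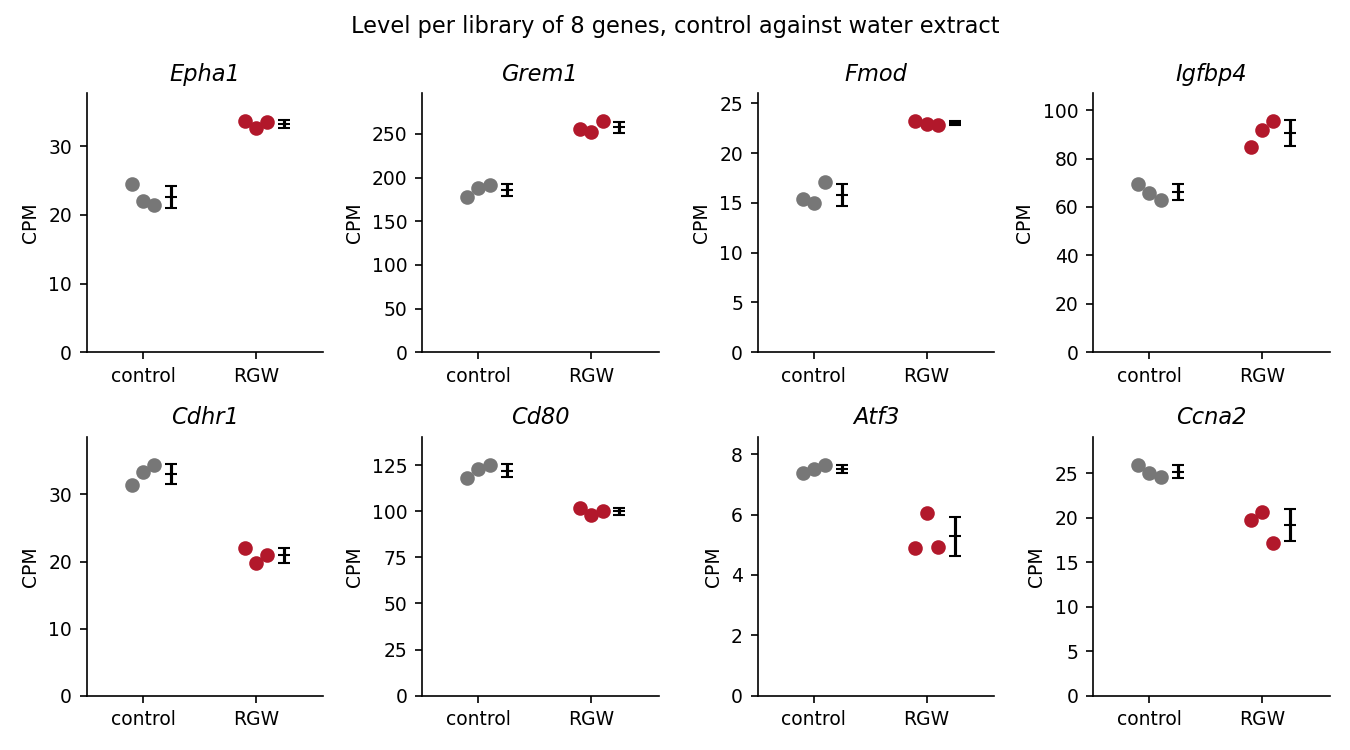
Level in CPM (y axis, from 0) of 8 genes in each control library (grey) and each RGW library (red), with the mean and SD (n = 3) beside the points. Epha1, Grem1, Fmod and Igfbp4 were higher and Cdhr1, Cd80, Atf3 and Ccna2 lower in all 3 RGW libraries than in any control library. For all but Igfbp4 and Ccna2 this was a condition of the naming rule.

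In the plot of 8 genes by library, lack of overlap was a condition of choice for all but Igfbp4 and Ccna2, which were taken as list members. The distance between groups was larger relative to the spread within them for Epha1, Grem1 and Cdhr1 than for Atf3 and Ccna2, described below. Genes with the largest rises otherwise had diverse known roles. Tcf23, a basic helix-loop-helix factor, rose from 11.1, 10.2 and 12.3 CPM to 16.7, 16 and 17.7 CPM (0.59 ± 0.086, adjusted p = 9.07e-05). Hsd17b13, a lipid droplet protein gene, rose by 0.57 ± 0.10 and Enpp2, which encodes the lysophosphatidic acid-producing enzyme autotaxin, by 0.51 ± 0.10. These 3 were called with any 1 library left out. Apln, the gene of the peptide hormone apelin, rose by 0.49 ± 0.11, but its adjusted p was 0.0535 without RGW 3. Lctl (0.54 ± 0.13) had an adjusted p of up to 0.137 without control 1, control 2 or RGW 3. Grip2 (0.50 ± 0.12) reached 0.164 and Asb14 (0.48 ± 0.12) reached 0.119 without control 1, and both also lost the call without RGW 1 or RGW 3 (Grip2 also without control 2).

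The 5 genes with at least 2-fold changes, named after their values were seen, were mostly near the limit of detection. Col10a1, a cartilage collagen gene, had 2.96, 2.49 and 1.72 CPM in control and 4.85, 4.32 and 6.24 CPM in RGW (1.08 ± 0.17, adjusted p = 0.00029). Fam180a went from 0.801, 0.759 and 0.387 CPM to 1.43, 1.43 and 1.45 CPM (1.11 ± 0.22). Both were called with any 1 library left out, but Fam180a had an adjusted p of 0.0562 in the fit of the 6 libraries alone. Arap3 (0.258 to 0.422 CPM in control, 0.611 to 0.964 CPM in RGW) lost the call without any 1 of the libraries, with adjusted p up to 0.197. Hyal3 (0.801 to 1.07 CPM in control, 0.362 to 0.571 CPM in RGW) reached 0.127 without RGW 1 and also lost the call without control 1, control 3 or RGW 3. Bche, at 0.344 to 0.453 CPM in control, was at 0.0814 to 0.143 CPM in RGW, about the level of 3 counts, and is given no fold. Its adjusted p was up to 0.178 with 1 library left out.

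Genes of the integrated stress response were lower in RGW. Of 12 tested regulators of the response, 6 fell and 0 rose, with a median log2 fold change of -0.17 and 11 of 12 values below 0. Of 14 stress-induced effector genes, 5 fell and 0 rose, with a median of -0.22 and 14 of 14 values below 0. Genes of amino acid synthesis and one-carbon metabolism, many of them known ATF4 targets, gave 5 falls and 0 rises among 14, with a median of -0.14 and 13 of 14 values below 0. Over all tested genes 1.17% fell and the median was -0.0037.

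The letters TGATGNAA, the core of the composite element that ATF4 binds with C/EBP partners, were searched on both strands in promoter windows of RefSeq genes (GRCm38.p6), from 250 bases before to 50 after the start of transcription. They stood in 3.97% of all 32851 windows and in 2.78% of the 9683 tested genes that had one. In the 3 lists together 12 of the 37 genes with a window held them (32.4%), and 7 of the 15 called ones. The called genes with a match before the start are shown, since these are the members that fell. Each line gives 100 bases 5′ to 3′ on the gene's strand, with the match in capitals, written as its reverse complement where it lies on the other strand.
Asns: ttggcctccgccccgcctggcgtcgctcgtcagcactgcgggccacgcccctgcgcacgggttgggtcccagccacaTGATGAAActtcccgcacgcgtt
Atf3: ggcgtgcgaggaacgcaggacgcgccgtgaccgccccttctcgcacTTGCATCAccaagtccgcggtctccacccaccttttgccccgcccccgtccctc
Chac1: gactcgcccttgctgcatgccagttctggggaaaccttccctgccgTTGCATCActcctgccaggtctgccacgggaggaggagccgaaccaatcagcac
Fgf21: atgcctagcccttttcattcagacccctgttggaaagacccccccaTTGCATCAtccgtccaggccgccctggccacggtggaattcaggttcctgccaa
Nupr1: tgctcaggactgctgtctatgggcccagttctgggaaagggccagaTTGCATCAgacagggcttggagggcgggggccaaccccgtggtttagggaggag
Pck2: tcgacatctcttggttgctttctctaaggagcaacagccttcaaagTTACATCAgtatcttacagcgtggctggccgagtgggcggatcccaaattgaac
On GRCm38 these stretches are chr6:7693210-7693309 (minus strand) for Asns, chr1:191183390-191183489 (minus) for Atf3, chr2:119351003-119351102 (plus) for Chac1, chr7:45615576-45615675 (minus) for Fgf21, chr7:126625527-126625626 (minus) for Nupr1 and chr14:55540117-55540216 (plus) for Pck2. The match began 23 bases before the start in Asns and 193 before it in Chac1, the nearest and the farthest of the 6. The match of the other called gene, Trib3, lay after its start. Binding was not measured in these samples, and a match describes the letters only.

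Among the regulators, Atf4 itself had 361, 358 and 331 CPM in control and 288, 325 and 300 CPM in RGW. The fall was small (-0.20 ± 0.047, adjusted p = 0.0104) with no overlap between the groups. Atf3, a stress-induced transcription factor, had 7.38, 7.51 and 7.65 CPM in control and 4.89, 6.04 and 4.91 CPM in RGW (-0.50 ± 0.11, adjusted p = 0.00562). Trib3, a pseudokinase that feeds back on ATF4, went from 22.8, 28.2 and 22.2 CPM to 14.8, 18.2 and 18.4 CPM (-0.50 ± 0.13, adjusted p = 0.0382). Each was lowest in RGW 1. Ddit3, which encodes CHOP, the factor tied to cell death under prolonged stress, went from 22, 26.4 and 20.8 CPM to 16, 19.4 and 17.6 CPM (-0.38 ± 0.10). Nupr1, a small stress-induced chromatin protein gene, went from 73.0, 78.6 and 75.4 CPM to 54.1, 59.1 and 63.3 CPM (-0.36 ± 0.075), and Eif4ebp1, a brake on translation, fell by 0.33 ± 0.080 on the log2 scale. Atf3 and Nupr1 were called with any 1 library left out and in the fit of the 6 libraries alone, in part narrowly. Without RGW 1 the adjusted p was 0.0460 for Atf3 and 0.0481 for Nupr1, and that of Atf3 was 0.04998 in the fit of the 6 libraries alone. The adjusted p of Atf4 was up to 0.0992 and that of Ddit3 up to 0.164 without control 1, control 2, RGW 1 or RGW 3. Eif4ebp1 reached 0.139 without control 1 and lost the call without control 2 or RGW 1, and Trib3 reached 0.176 without RGW 1 and was called only without control 3. Without control 1, control 2 or RGW 1, 2 of the 12 regulators fell, and without RGW 3, 3 did.

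Effector genes moved by like amounts. Chac1, which encodes an enzyme that breaks down glutathione, fell from 51.5, 53.7 and 54.9 CPM to 35.8, 40.3 and 38.2 CPM (-0.48 ± 0.10, adjusted p = 0.00652). Sesn2, a leucine-binding inhibitor of mTORC1 signalling, fell from 27.8, 33.2 and 32.0 CPM to 25.1, 24.6 and 23.4 CPM (-0.34 ± 0.069, adjusted p = 0.00306). Both were called with any 1 library left out (Chac1 with an adjusted p of 0.0466 without RGW 1) and in the fit of the 6 libraries alone, and neither had overlapping groups. Fgf21, the hormone gene, fell from 46.6, 51.7 and 44.7 CPM to 36.9, 40.5 and 32.9 CPM (-0.37 ± 0.091, adjusted p up to 0.116 without control 1, control 2, RGW 1 or RGW 3). Pck2, the mitochondrial form of phosphoenolpyruvate carboxykinase, fell from 69.7, 73.3 and 74.4 CPM to 57.7, 59.7 and 58.9 CPM (-0.30 ± 0.074). Its adjusted p was up to 0.0869 without any 1 library but control 1. Ddit4, an mTORC1 inhibitor also raised by glucocorticoids, fell by 0.26 ± 0.069 on the log2 scale (adjusted p up to 0.276 without control 1, control 2, RGW 1 or RGW 3). Gdf15, at -0.42 ± 0.14, was not called (adjusted p = 0.109). The count of effectors that fell was 2 of 14 without control 2, RGW 1 or RGW 3 and 3 without control 1.

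In amino acid synthesis, Psph and Psat1 of the serine pathway, Shmt2 of mitochondrial one-carbon metabolism, Aldh18a1 of proline synthesis and Asns, asparagine synthetase, fell. Psph went from 26.2, 26.8 and 24.4 CPM to 19.3, 21 and 19.8 CPM (-0.36 ± 0.094, adjusted p = 0.0271). Asns went from 90.1, 101 and 92.6 CPM to 81.2, 83.0 and 79.4 CPM (-0.22 ± 0.057, adjusted p = 0.0261). The other 3 fell by 0.14 to 0.17 on the log2 scale. In all 5 the groups did not overlap, as in 386 of the 391 called genes. Slc3a2, the heavy chain of amino acid exchangers, fell by 0.21 ± 0.057 on the log2 scale and was the only one called of 11 amino acid transport genes. None of these 6 genes kept its call with each library left out. The largest adjusted p was 0.119 for Psph without RGW 1, 0.143 for Asns and 0.132 for Psat1 without control 2, 0.231 for Aldh18a1 without RGW 3, 0.163 for Shmt2 without control 1 and 0.177 for Slc3a2 without control 2. Of the 14 synthesis genes, 0 were called without control 2, RGW 1 or RGW 3 in edgeR's test, 2 without control 3 and 3 without control 1. With all libraries, 9 had an unadjusted p under 0.05, and DESeq2 called 5.

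**Figure D3:**
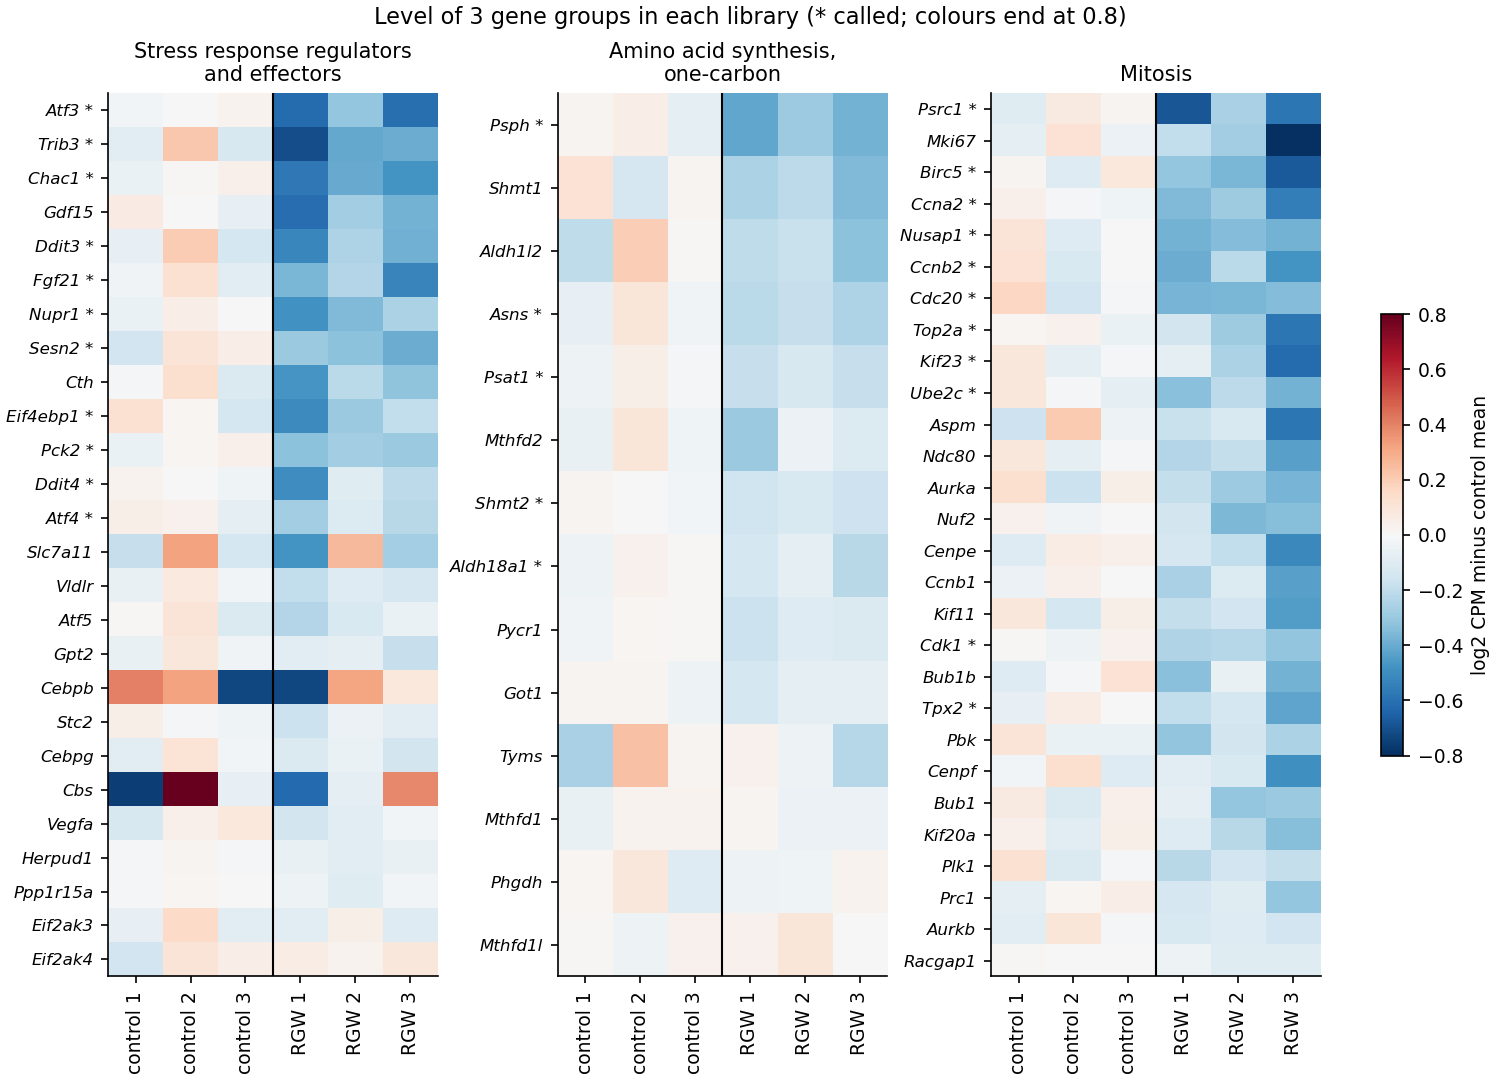
Log2 CPM minus the mean of the 3 control libraries, by colour, for every tested gene (rows) of the stress response, amino acid synthesis and mitosis lists in the 6 libraries (columns); asterisks mark called genes and the colour scale ends at 0.8 in either direction. RGW columns are mostly blue, with RGW 1 lowest in the stress response lists and RGW 3 lowest in mitosis.

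The plot of 3 gene groups by library shows how evenly the 3 RGW libraries carried these falls. The median over the 12 regulators, relative to the control mean, was -0.38 in RGW 1, -0.12 in RGW 2 and -0.17 in RGW 3, against -0.082 to 0.10 in the control libraries. Over the 14 effectors the medians were -0.35, -0.10 and -0.24, against -0.053 to 0.058. For mitosis they were -0.20, -0.21 and -0.40, against -0.023 to 0.027. In the fit of the 6 libraries alone, 2 regulators, 3 effectors, 1 amino acid synthesis gene and 1 mitosis gene were called.

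Genes of cell division were also lower in RGW. Of 28 mitosis genes, 11 fell and 0 rose, 28 of 28 had a log2 fold change below 0, and the median was -0.27. Among all tested genes 1.17% fell. In 24 of the 28 all 3 RGW libraries lay below all 3 control libraries, against 8.81% of all tested genes. Ccna2, the cyclin A2 gene, fell from 25.9, 25 and 24.5 CPM to 19.7, 20.7 and 17.1 CPM (-0.39 ± 0.070, adjusted p = 0.000964). Cdc20, which activates the anaphase-promoting complex, fell from 16.7, 13.4 and 14.7 CPM to 11.5, 11.5 and 11.7 CPM (-0.37 ± 0.080, adjusted p = 0.00498). Neither had overlapping groups, as was so for 386 of the 391 called genes. Birc5, which encodes survivin of the chromosomal passenger complex, went from 10.3, 9.49 and 10.8 CPM to 8.23, 7.89 and 6.36 CPM (-0.44 ± 0.10). Nusap1, a spindle protein gene, went from 11.7, 10.1 and 10.8 CPM to 8.35, 8.5 and 8.34 CPM (-0.38 ± 0.087). Ccnb2, the cyclin B2 gene, went from 14.4, 12.2 and 13.3 CPM to 10.1, 11.4 and 9.50 CPM (-0.37 ± 0.087), and the groups of these genes did not overlap either. Psrc1, a spindle protein gene, fell by 0.49 ± 0.12 on the log2 scale. Mki67, the proliferation marker, had 48.4, 55.3 and 49.3 CPM in control and 44.4, 41.9 and 27.5 CPM in RGW and was not called (-0.42 ± 0.15, adjusted p = 0.149).

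Outside the list, Depdc1a (-0.61 ± 0.11, adjusted p = 0.000626), Ckap2 (-0.45 ± 0.10), Tcf19 (-0.42 ± 0.10) and the condensin gene Ncapg (-0.40 ± 0.089), which are known from dividing cells, were among the 12 largest falls. Of 24 DNA replication genes only Mcm2, a subunit of the replicative helicase, fell (-0.27 ± 0.066, adjusted p = 0.0171), with a list median of -0.092. Ccna2 and Depdc1a were called with any 1 library left out and in the fit of the 6 libraries alone. Without RGW 3, 3 of the 28 mitosis genes fell, 4 did without control 1 and 7 without control 3. The adjusted p of Cdc20 was 0.0951 and that of Nusap1 0.0982 without control 1. It was 0.0960 for Birc5, 0.0704 for Ckap2 and 0.0615 for Ncapg without RGW 3. It was up to 0.158 for Tcf19 without control 1 or RGW 3, up to 0.121 for Ccnb2 without control 1, RGW 1 or RGW 3, up to 0.107 for Psrc1 without control 2, RGW 1 or RGW 3, and up to 0.123 for Mcm2 without control 3 or RGW 2. In bulk RNA, fewer dividing cells and less of these transcripts per cell cannot be told apart. The summed level of the myoblast markers overlapped between the groups, but it was mostly that of Itga7, as given above. The number of single cells was not measured.

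Promoters of mitosis genes commonly hold the cell cycle genes homology region, a motif bound by the DREAM complex that represses them in resting cells. Its letters, TTTGAA, were searched on both strands in the same windows and stood in 17.9% of all windows and 14.1% of tested genes with one. They were present in 16 of the 23 mitosis genes with a window (69.6%) and in 6 of the 9 called ones (66.7%). When only the bases before the start were searched, they stood in 8 of the 23 (34.8%) and in 12.6% of tested genes with a window. The 4 sequences below are from called genes with a match in the last 100 bases before the start, and they end at the base before the start. Capitals mark TTTGAA, or TTCAAA where the match lies on the other strand.
Cdc20: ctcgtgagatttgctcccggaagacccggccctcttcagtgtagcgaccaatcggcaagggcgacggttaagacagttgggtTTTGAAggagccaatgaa
Cdk1: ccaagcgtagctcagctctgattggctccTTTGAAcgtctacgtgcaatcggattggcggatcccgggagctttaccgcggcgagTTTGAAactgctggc
Top2a: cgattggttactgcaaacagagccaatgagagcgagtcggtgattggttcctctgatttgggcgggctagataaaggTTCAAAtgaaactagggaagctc
Ube2c: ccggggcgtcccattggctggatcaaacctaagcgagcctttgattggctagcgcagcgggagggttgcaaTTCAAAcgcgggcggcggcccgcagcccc
On GRCm38 they lie at chr4:118437344-118437443 (minus strand) for Cdc20, chr10:69352913-69353012 (minus) for Cdk1, chr11:99024190-99024289 (minus) for Top2a and chr2:164769829-164769928 (plus) for Ube2c. Cdk1, the kinase that drives entry into mitosis, went from 21.4, 20.7 and 21.8 CPM to 18, 18.2 and 17.1 CPM (-0.26 ± 0.068). Top2a, which untangles chromosomes, went from 54.9, 55.4 and 52.4 CPM to 49.0, 44.4 and 36.2 CPM (-0.33 ± 0.090). Ube2c, the ubiquitin-conjugating enzyme of the anaphase-promoting complex, went from 17.6, 16.3 and 15.7 CPM to 13.1, 14.3 and 12.7 CPM (-0.31 ± 0.074). Top2a was lowest in RGW 3, and none of the 3 genes had overlapping groups.

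Enzymes of cholesterol synthesis fell slightly. Of 22 genes, 7 fell and 0 rose, with a median log2 fold change of -0.11 and 19 values below 0. Among all tested genes 1.17% fell. Sqle, squalene epoxidase, went from 160, 144 and 155 CPM to 132, 132 and 134 CPM (-0.21 ± 0.040, adjusted p = 0.00198). Msmo1, a sterol demethylation enzyme, went from 116, 107 and 108 CPM to 93.9, 95.0 and 92.3 CPM (-0.24 ± 0.042, adjusted p = 0.000917). Both groups of values were apart, and both genes were called with any 1 library left out, but Sqle had an adjusted p of 0.0577 in the fit of the 6 libraries alone. Fdft1 (squalene synthase, -0.19 ± 0.042), Hmgcs1 (-0.16 ± 0.037) and Idi1 (-0.17 ± 0.044) also fell. The adjusted p was 0.0693 for Fdft1 without RGW 1 (also lost without control 1), 0.0583 for Hmgcs1 without RGW 3 and 0.0990 for Idi1 without control 1 (called only without control 3). Among 12 genes of sterol sensing and uptake 0 were called in edgeR's test or by DESeq2 (4 had an unadjusted p under 0.05), with Insig1, which holds the sterol sensor in the endoplasmic reticulum, at -0.084 ± 0.042 (adjusted p = 0.308). The count of cholesterol synthesis genes that fell was 3 without control 1, RGW 1 or RGW 3, 4 without control 2 and 1 in the fit of the 6 libraries alone. The sterol regulatory element TCACNCCAC, searched on both strands, stood in 1 of 17 promoter windows of the list, that of Hmgcs1, and in 1.43% of tested genes with a window.

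Genes of xenobiotic and antioxidant defence rose in part. Of 6 tested genes around the aryl hydrocarbon receptor, 3 rose and 0 fell, with a median of 0.24, where 2.04% of all tested genes rose. Cyp1b1, a cytochrome P450 induced through that receptor, went from 116, 121 and 124 CPM to 145, 147 and 137 CPM (0.25 ± 0.039, adjusted p = 0.000206). Ahr, the receptor gene, went from 46.0, 48.7 and 51.5 CPM to 57.1, 55.6 and 58.0 CPM (0.23 ± 0.051, and 0.0775 as its adjusted p without control 1). Aldh3a1, an aldehyde dehydrogenase, went from 4.74, 4.38 and 4.13 CPM to 5.62, 6.11 and 7.09 CPM (0.50 ± 0.10, adjusted p = 0.00404, and 0.0509 without RGW 3). The groups did not overlap in any of the 3, and Cyp1b1 alone was called in the fit of the 6 libraries alone (adjusted p = 0.0562 for Ahr and 0.0676 for Aldh3a1). Of 28 targets of the antioxidant factor NRF2, 3 rose and 0 fell, with a median of 0.074. They were the glutathione S-transferase genes Gstm1 (41.2, 39.3 and 44.1 CPM to 55.7, 51.0 and 57.1 CPM, 0.39 ± 0.065, adjusted p = 0.000439) and Gstm2 (0.34 ± 0.063), and the ferritin light chain gene Ftl1 (0.23 ± 0.056). Close copies of these genes exist, so reads may have been divided among them. The antioxidant response element TGACNNNGC, searched on both strands in the promoter windows, stood in 8 of 23 genes of the list (34.8%). It stood in 17.2% of tested genes with a window. Gstm1, Gstm2 and Ftl1 were not among the 8. The adjusted p of Ftl1 was up to 0.101 without control 2, control 3, RGW 2 or RGW 3, and in the fit of the 6 libraries alone the list had 2 calls. Nqo1, at 2.87 to 4.08 CPM in control and 2.78 to 3.62 CPM in RGW, and Hmox1, at 46.9 to 49.7 and 48.6 to 50.04 CPM, had overlapping groups and adjusted p of 0.947 and 0.739. Metallothioneins Mt1 and Mt2, which bind zinc and copper, rose by 0.36 ± 0.074 and 0.35 ± 0.081, and Mt2 had an adjusted p of up to 0.0859 without control 2, control 3, RGW 2 or RGW 3.

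Muscle genes moved little. Of 17 thick filament genes 2 rose, of 24 thin filament and Z-disc genes 2 rose, of 16 calcium handling genes 2 rose, and 0 fell in any of these lists, with medians of 0.033, -0.042 and 0.029. Among all tested genes 2.04% rose and 1.17% fell. Mybpc2, fast myosin-binding protein C, went from 119, 120 and 118 CPM to 139, 135 and 149 CPM (0.24 ± 0.042, adjusted p = 0.000566) and was called with any 1 library left out and in the fit of the 6 libraries alone. Cacna1s, the muscle voltage sensor, went from 440, 478 and 467 CPM to 566, 512 and 526 CPM (0.21 ± 0.043, adjusted p = 0.00278). Atp2a1, the fast-fibre calcium pump, went from 1760, 1889 and 1850 CPM to 2012, 1970 and 2046 CPM (0.13 ± 0.035), with adjusted p up to 0.155 without control 1, RGW 1 or RGW 3. None of these 3 had overlapping groups. Myom3 (0.16 ± 0.041), Myoz2 (0.15 ± 0.039) and Actn2 (0.16 ± 0.047) reached adjusted p of 0.169, 0.168 and 0.173 with 1 library left out: Myom3 without control 1, Myoz2 without RGW 3 and Actn2 without RGW 1. Myoz2 lost its call without control 2, control 3, RGW 1 or RGW 3, Myom3 without control 1, RGW 1 or RGW 3 and Actn2 without any 1 of the libraries. Slc27a1, a fatty acid transporter, went from 50.7, 48.5 and 49.3 CPM to 58.2, 60.4 and 58.5 CPM (0.25 ± 0.035), and Pfkm, muscle phosphofructokinase, rose by 0.18 ± 0.033. Slc27a1 and Pfkm were called with any 1 library left out, but in the fit of the 6 libraries alone the adjusted p of Pfkm was 0.0516. In that fit Cacna1s had 0.0538, and the calls were 1 in the thick filament list and 0 in the other 2 lists.

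Among 16 myogenic factors edgeR called 0, DESeq2 called 1 and 5 had an unadjusted p under 0.05, with Myog at -0.13 ± 0.047 (adjusted p = 0.122) and Myod1 at -0.10 ± 0.040 (adjusted p = 0.181). Myh3, embryonic myosin, had 4068, 4337 and 4171 CPM in control and 4521, 4029 and 4274 CPM in RGW, with overlapping groups (0.028 ± 0.043, and -0.013 without RGW 1). The creatine kinase gene Ckm was at 0.11 ± 0.050 (adjusted p = 0.282). Of the atrophy ubiquitin ligases, Fbxo32 was at 0.11 ± 0.050 and Trim63 at 0.11 ± 0.060 (adjusted p = 0.244 and 0.378). Cdkn1a, the p21 gene, had 2193, 2012 and 1985 CPM in control and 1828, 1872 and 1851 CPM in RGW (-0.16 ± 0.038, adjusted p = 0.0139), and 0.181 without control 1, with the call lost also without RGW 1 or RGW 3. Ccng1, another p53 target, fell from 466, 456 and 484 CPM to 414, 392 and 407 CPM (-0.21 ± 0.034, adjusted p = 0.00029) and was called with any 1 library left out. These were the 2 that fell among 24 p53 targets, and 0 rose, where 1.17% of all tested genes fell.

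Mitochondrially encoded genes had a median log2 fold change of 0.50 over 13 genes, with 10 values above 0, but only 2 were called. Both rose, as did 2.04% of all tested genes. mt-Nd5 had 660, 812 and 1054 CPM in control and 1340, 1195 and 1356 CPM in RGW (0.62 ± 0.15, adjusted p = 0.0246). mt-Nd6 had 117, 114 and 125 CPM in control and 137, 163 and 203 CPM in RGW (0.50 ± 0.11, adjusted p = 0.0118). The control libraries alone differed widely in mt-Nd5. Its adjusted p was up to 0.138 without control 1, control 2, RGW 1 or RGW 3, and that of mt-Nd6 up to 0.0743 without control 2 or RGW 3. Without control 3, the control library richest in these transcripts, 6 of the 13 rose, against 0 without control 2 or RGW 3, 1 without control 1 or RGW 1, 0 in the fit of the 6 libraries alone and 4 with DESeq2. Of 30 nuclear genes of oxidative phosphorylation edgeR and DESeq2 called 0 (2 had an unadjusted p under 0.05, median -0.031), and Ppargc1a, a regulator of mitochondrial biogenesis, stood at 2.16 to 2.88 CPM in control and 3.01 to 3.30 CPM in RGW (adjusted p = 0.176). A repeat without the 13 genes, chosen after seeing the data, called 398 genes, 388 of them among the 391.

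**Figure D4:**
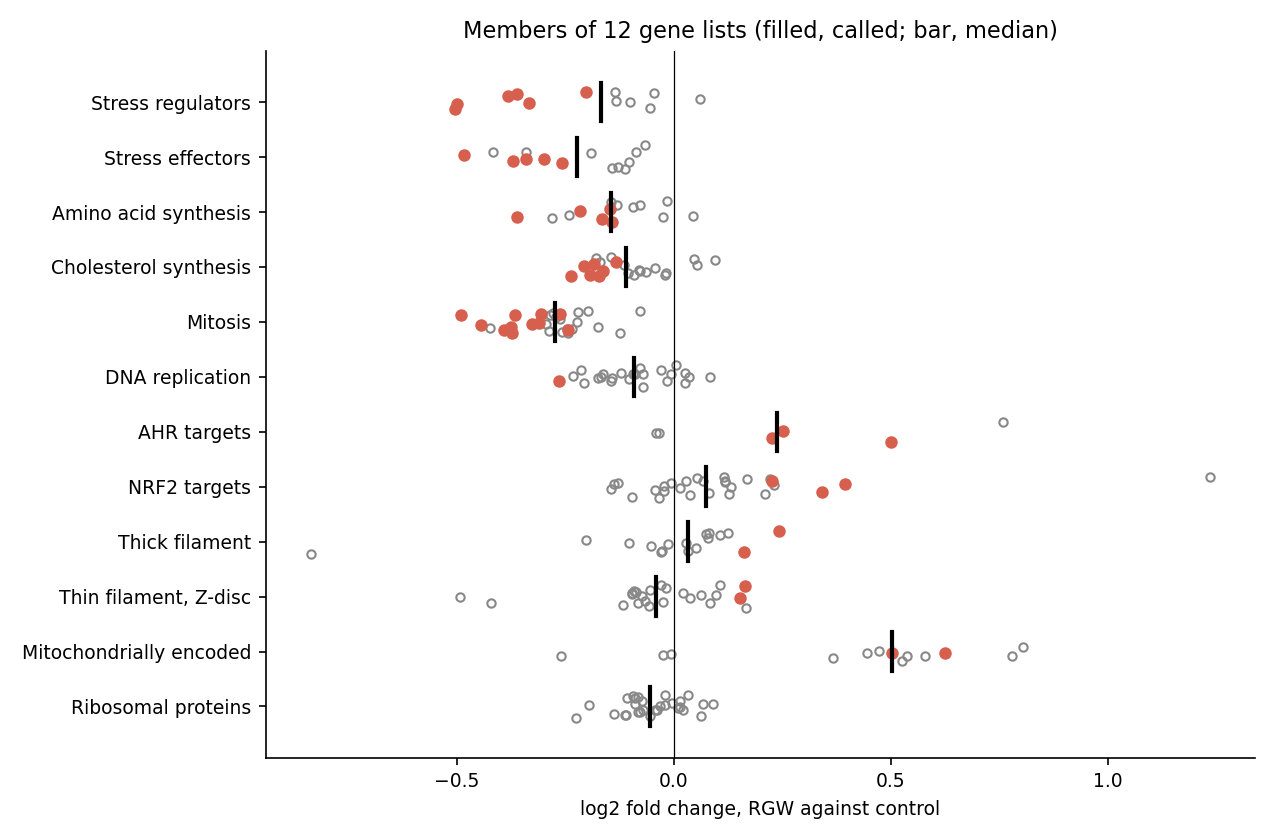
Log2 fold change of RGW against control (x axis) for every tested member of 12 gene lists (rows); filled points were called, open points were not, and black bars are list medians. Stress, amino acid, cholesterol and mitosis lists lie left of 0, with medians from -0.27 to -0.11, and the lists around the aryl hydrocarbon receptor and the mitochondrial genome lie right of it.

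The plot of list members shows that most members of the lists that moved were themselves not called.

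Genes of intercellular signalling rose in small numbers. Of 18 ephrin receptors and ligands 2 rose, Epha1 and Ephb6 (86.9, 92 and 95.6 CPM to 106, 105 and 108 CPM, 0.22 ± 0.037, adjusted p = 0.000539). Of 21 TGF-beta, BMP and activin genes 2 rose, Bmp4 and Id3, a BMP-induced inhibitor of basic helix-loop-helix factors (0.34 ± 0.073, adjusted p = 0.0569 without RGW 3). Of 18 Wnt genes 2 rose, the secreted Sfrp2 (0.22 ± 0.047) and the Wnt inhibitor Nkd2, whose call was lost without any 1 library (0.24 ± 0.068, adjusted p up to 0.182). Of 21 secreted inflammation and senescence genes 2 rose, Igfbp4 and the cytokine Lif (0.28 ± 0.079), which was called only without control 3 and otherwise reached 0.200 without control 1. None of these 4 lists had a fall, and their medians were 0.023, -0.0098, 0.036 and -0.0033. Among all tested genes 2.04% rose. In edgeR's fit of the 6 libraries alone, the calls were 2 in the ephrin list, 2 in the TGF-beta list, 0 in the Wnt list (adjusted p = 0.0534 for Sfrp2 and 0.0755 for Nkd2) and 1 in the inflammation list. Rxra was the only call among 11 estrogen and androgen receptor genes and targets.

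In metabolism and stress, 1 of 23 glycolysis genes (Pfkm), 1 of 23 fatty acid oxidation genes (Ucp3) and 1 of 21 heat shock genes (Hspb7) rose. Among all tested genes 2.04% rose and 1.17% fell, so single calls in lists of this size say little about the lists. Ucp3, a muscle mitochondrial carrier, went from 3.13, 3.04 and 3.44 CPM to 4.72, 4.75 and 4.51 CPM (0.54 ± 0.13), with adjusted p up to 0.0628 without control 1, control 2 or RGW 1. Hspb7, a small heat shock protein of muscle, rose by 0.26 ± 0.050 and was called with any 1 library left out, but not in the fit of the 6 libraries alone (adjusted p = 0.0516). Of 17 atrophy genes Mt1 and Mt2 rose and Eif4ebp1 fell, and of 11 glucocorticoid targets Mt2 rose and Ddit4 fell. Of 23 immediate early genes 2 fell, Atf3 and Egr3 (-0.17 ± 0.037, adjusted p = 0.0559 without control 3). Among abundant transcripts, Ankrd1, a stretch-responsive muscle gene, fell from 1884, 1897 and 1872 CPM to 1666, 1687 and 1744 CPM (-0.15 ± 0.034, adjusted p = 0.0679 without RGW 1). The transferrin receptor gene Tfrc fell by 0.16 ± 0.039 on the log2 scale (adjusted p up to 0.0717 without control 3 or RGW 2) and the calponin gene Cnn3 by 0.11 ± 0.030 (up to 0.127 without control 1, control 2, RGW 1 or RGW 2). Rhobtb2 rose by 0.28 ± 0.039 and kept its call with any 1 library left out. Plxna4, a semaphorin receptor gene, fell by 0.42 ± 0.12 on the log2 scale and lost its call without any 1 library (adjusted p up to 0.152).

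In several lists 0 genes were called in edgeR's test. Their counts at an unadjusted p under 0.05 were 5 of 28 extracellular matrix genes (median -0.072, and 2 called by DESeq2), 5 of 14 fatty acid synthesis genes (-0.025, 1 by DESeq2) and 3 of 9 tested fibroblast and tenocyte markers (0.068, 1 by DESeq2). DESeq2 also called 0 genes in the remaining lists, where the counts at an unadjusted p under 0.05 were 2 of 29 ribosomal protein genes (-0.055), 2 of 28 proteasome genes (-0.058), 4 of 21 ribosome biogenesis genes (-0.045), 2 of 21 autophagy and lysosome genes (0.043), 2 of 19 endoplasmic reticulum chaperones (-0.015) and 2 of 18 interferon-response genes (0.0019). In the same way they were 3 of 18 clock genes (0.017), 3 of 14 Notch genes (-0.087), 4 of 13 ERK feedback genes (-0.041), 4 of 12 neuromuscular junction genes (0.072), 2 of 15 mitochondrial biogenesis genes (-0.012) and 0 of 2 tRNA synthetases (-0.053). Few markers of other cell types were tested, 3 for adipocytes, 5 for bone and cartilage and 6 for endothelial and immune cells. None of these had an unadjusted p under 0.05 in edgeR's test. Col10a1, the cartilage collagen gene that rose, was not in the bone and cartilage list. Of 10 myotube markers Cacna1s alone was called (median -0.058).

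The same extract was also read under D-galactose, as RGW_Dgal against Dgal. These 6 libraries are shared with neither RGW nor control, so they did not set the fold changes of the called genes, but all 30 libraries entered the common estimate of the spread behind the calls. In that comparison 617 genes (5.06%) were called, 307 higher (2.52%) and 310 lower (2.54%). Of the 391 genes called for the extract alone, 341 had the same sign there, 232 of the 248 that rose and 109 of the 143 that fell. The share with the same sign over all tested genes was not computed, so these counts stand without a background. Both comparisons called 149 genes in the same direction, 112 higher and 37 lower, and 0 in opposite directions. That is 38.1% of the calls for the extract alone and 24.1% of the calls under D-galactose. The median log2 fold change of the risen genes was 0.23 alone and 0.15 under D-galactose, and of the fallen genes -0.23 alone and -0.086 under D-galactose. The genes were chosen for their values with the extract alone, which enlarges those medians, so the pairs of medians cannot tell whether the 2 settings differed.

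Epha1 was at 0.42 ± 0.051 under D-galactose, Grem1 at 0.37 ± 0.051, Fmod at 0.49 ± 0.068, Igfbp4 at 0.58 ± 0.064 and Enpp2 at 0.67 ± 0.10, all called higher. Cdhr1 (-0.99 ± 0.078), Cd80 (-0.49 ± 0.033) and Ccng1 (-0.39 ± 0.034) were called lower. Cholesterol synthesis genes gave 7 falls and 2 rises of 22 under D-galactose, with Sqle at -0.23 ± 0.041 and Msmo1 at -0.24 ± 0.043. The mitosis list had a median of 0.038 under D-galactose, with 1 fall and 0 rises, Ccna2 at 0.0088 ± 0.087 and Cdc20 at 0.22 ± 0.10. Stress regulators gave 0 calls in edgeR's test and by DESeq2 under D-galactose (8 of 12 with an unadjusted p under 0.05, median -0.068), effectors 1 fall (median -0.035) and amino acid synthesis genes 1 rise (median 0.037). Atf3 was at -0.26 ± 0.10 and Chac1 at -0.17 ± 0.10, neither called.

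**Figure D5:**
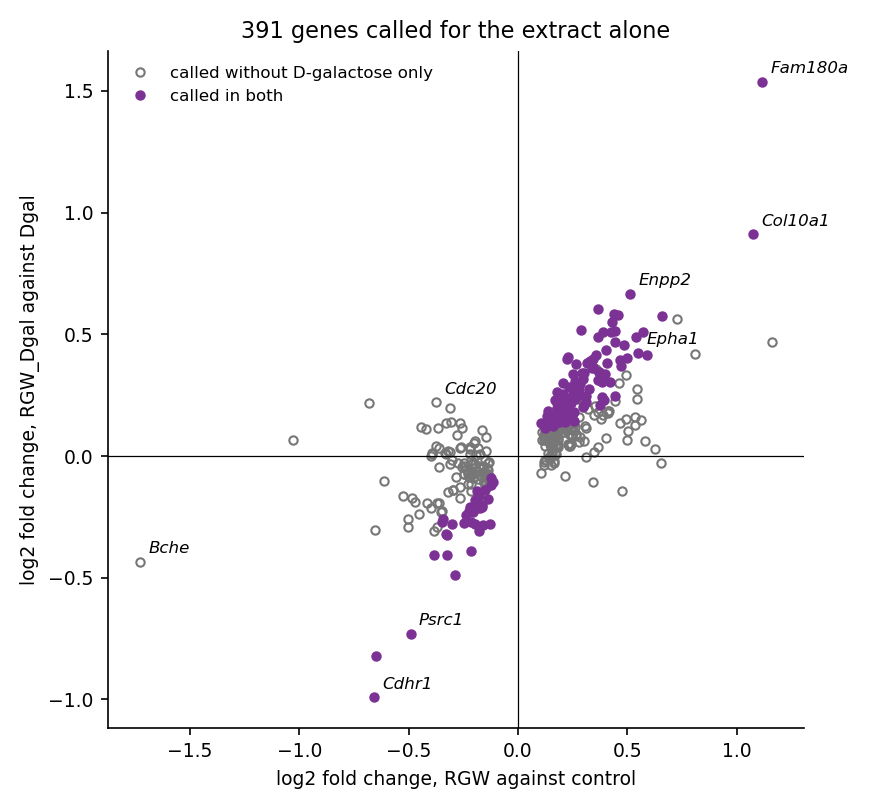
Log2 fold change of RGW_Dgal against Dgal (y axis) plotted against that of RGW against control (x axis) for the 391 genes called for the extract alone; filled points were called in both. Points right of 0 lie mostly above 0, with 112 of 248 called in both, and points left of 0 lie nearer 0 on the y axis, with 37 of 143 called in both.

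The plot of the 2 comparisons sets the risen genes beside the fallen ones. Whether the effect itself differed with D-galactose was tested gene by gene as an interaction. edgeR called 0 of 12184 genes, 1153 had an unadjusted p under 0.05, and DESeq2 called 21. The 4 genes of smallest p were Jdp2, Ephx1, Arrdc3 and Osgin1. Jdp2, an AP-1 family repressor, fell with the extract alone (67.9, 64.8 and 62.2 CPM to 49.9, 54.9 and 56.1 CPM, -0.28 ± 0.048) and was at 0.088 ± 0.049 under D-galactose (interaction adjusted p = 0.0520). Arrdc3, an arrestin family gene, was at 0.057 ± 0.060 alone and -0.37 ± 0.056 under D-galactose (0.0520). The interaction of Cdc20 had an adjusted p of 0.084. Of the 28 mitosis genes, 25 had an interaction above 0, with a median of 0.36, a value that contains their fall with the extract alone.

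The extract can also be set beside its fractions at the same mass per mL and the same labelled time. These comparisons share the 3 RGW libraries with RGW against control. The share of each fraction in the extract was not measured here, so equal mass need not mean equal exposure to a fraction's compounds. RGW and NSFr differed in 499 genes (4.1%), with RGW higher in 1.77% of the tested genes and lower in 2.32%. RGW and SFr differed in 4762 (39.1%, RGW higher in 19.4% and lower in 19.7%). RGW and Rb2, a purified saponin at 20 µM, differed in 1177 (9.66%, RGW higher in 5.59% and lower in 4.07%). Epha1 stood at 33.3 ± 0.533 CPM in RGW, 30.05 ± 0.881 in NSFr, 57.7 ± 0.360 in SFr and 23.4 ± 1.62 in Rb2, against 22.7 ± 1.63 in control (SD, n = 3). Grem1 had the same order, with 257 ± 6.33 CPM in RGW, 236 ± 15.8 in NSFr, 695 ± 26.6 in SFr, 190 ± 5.72 in Rb2 and 186 ± 6.94 in control. The test of RGW against NSFr did not pass for either gene (adjusted p = 0.0874 for Epha1 and 0.173 for Grem1), while RGW differed from SFr and Rb2 in both. Fmod stood at 23.0 ± 0.195 CPM in RGW and 23.0 ± 1.85 in NSFr, but at 6.75 ± 0.575 in SFr, below control at 15.8 ± 1.10.

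In the mitosis list, RGW was lower than NSFr in 23 of 28 genes (median -0.39) and lower than Rb2 in 25 (median -0.44). RGW was higher than SFr in all 28 (median 0.93). Ccna2 had 19.2 ± 1.84 CPM in RGW, 28.5 ± 0.0896 in NSFr, 29.0 ± 1.31 in Rb2, 9.29 ± 0.337 in SFr and 25.2 ± 0.709 in control. Among the 12 stress regulators RGW and NSFr differed in 0 genes in edgeR's test and by DESeq2 (1 with an unadjusted p under 0.05, median 0.014), while RGW was lower than Rb2 in 7 and lower than SFr in 7. The related lists went both ways against SFr. Of 14 effectors RGW was higher than SFr in 4 and lower in 3, and of 14 amino acid synthesis genes higher in 5 and lower in 1. Against Rb2, RGW was lower in 7 and higher in 0 in each of these lists. Chac1 was at 38.1 ± 2.23 CPM in RGW, 35.3 ± 7.27 in NSFr, 34.2 ± 2.26 in SFr, 52.4 ± 2.96 in Rb2 and 53.4 ± 1.70 in control, and of the 3 preparations only Rb2 passed the test against RGW (adjusted p = 0.00325). Sqle, by contrast, was at 133 ± 0.922 CPM in RGW and 136 ± 4.08 in NSFr, but at 219 ± 3.21 in SFr and 161 ± 7.85 in Rb2, against 153 ± 7.97 in control. SFr and RGW lay on opposite sides of control for Sqle.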

How the data were processed

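Poly(A) RNA of C2C12 myotubes was read on a DNBSEQ instrument from strand-specific MGIEasy libraries, per the labels' protocols. Values in the deposited matrix are RSEM expected counts, which the authors left unscaled. Per the submitters' processing notes, the tools were STAR 2.7.9a, RSEM 1.3.3, Trim Galore 0.6.10 and FastQC 0.11.9, and the builds named were GRCm38 and mm10. For the annotation and the strand setting, both are not given in the sources. RSEM divides reads that match several genes, so genes with close copies are uncertain, and 19.4% of the values were not whole.

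Expected counts were rounded. edgeR 4.0.16 in R 4.3.3 fitted a mean for each group to all 30 libraries, scaled by TMM (quasi-likelihood F-test, robust), after filterByExpr had kept 12184 of 16025 genes. Printed CPM are relative to the TMM-scaled sum of kept genes in a library. Errors beside log2 fold changes are standard errors, obtained from the fold change and the F statistic (log2 fold change over root F). Called means a Benjamini-Hochberg adjusted p under 0.05 over all 12184 genes. The replicate pairs of the 6 libraries differed by more than sampling noise (chi-square per degree of freedom 5.73 to 11.2). Counts of all 30 libraries were simulated and fitted together. Each value was drawn independently, so shifts of many genes together in 1 library were not included. Of the 12141 genes tested, RGW was set equal to control except for 50 altered genes for each fold size. Of these altered genes, 58% were called when the fold was 1.2, 68% for 1.3, 88% for 1.5 and 98% for 2, and 5 unaltered genes were called.

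The samples compared and 50 gene lists (886 genes, 829 in the table) were chosen with earlier results of these data known. Of called genes with a mean of at least 5 CPM and groups that did not overlap, leaving out predicted genes, the naming rule took the 12 largest rises, the 12 largest falls, the 8 of smallest p and the 6 of highest level. It added up to 5 called members per list by p, the 4 interaction genes of smallest p, and a fixed set of 17 genes, of which Mstn was not tested. Others named are list members given with their values, or are marked as chosen after their values were seen. The text summarises some of the genes that the rule takes. A few genes that it takes are not reported here. Lists of cell cycle histones and nuclear noncoding RNAs, and most tRNA synthetases, are not analysed here. Other settings tried were DESeq2 1.42.0, a block for replicate number, the compared groups fitted by themselves, RLE scaling, all genes unfiltered, and leaving out single libraries. Promoter windows came from RefSeq (GRCm38.p6) and coordinates from GENCODE vM21, in which 16021 symbols matched.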

Additional observations from a re-analysis of the deposited data

How the results depend on the processing

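RGW against control gave 391 calls, 91 in the fit of the 6 libraries alone, and 196 to 348 with 1 library left out. RGW_Dgal against Dgal gave 617, 348 in the fit of its own groups, and 342 to 453 with 1 library left out. RGW against NSFr gave 499, 272 in the fit of its own groups, and 195 to 384 with 1 left out, and RGW against Rb2 gave 1177 and 723 to 1062. The interaction gave 0 calls, 3 with no filter on low counts, 2 with the replicate block, 21 with DESeq2, and 0 to 9 with 1 library left out. The cause of these shifts was not tested, beyond there being fewer libraries in the smaller fits. For RGW against control, RLE scaling called 395 genes, no filter 326, DESeq2 417 and the replicate block 361, of which 350 were among the 391. The share of higher calls was 63.4%, and 62.6% to 66.3% under those 4 settings and 70.3% in the fit of the 6 libraries alone. Deviations of same-numbered control and RGW libraries correlated at -0.18, 0.12 and -0.052, which gave no sign of pairing by number. Correlations with NSFr and with Rb2 were weak (0.0083 to 0.094), but there all 3 RGW libraries matched their own number best, and with SFr 0 did. Signs turned for Myh3 (-0.013 without RGW 1, with a range of -0.013 to 0.072 over the libraries left out), Nqo1 (0.11 without control 3 and 0.075 without RGW 3, from -0.14 to 0.11) and Arrdc3 (-0.0070 without RGW 3, from -0.0070 to 0.11), none of them called. In the simulated fit of all 30 libraries, 58% of 1.2-fold changes were recovered. Recovery in a fit of 6 libraries alone was not simulated.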
